A study of Macaca mulatta with 8 samples.

Results

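This account covers 74 genes of splicing factors and related RNA-binding proteins in rhesus monkey cells, among 12460 gene symbols listed with mRNA levels. They were taken by symbol alone: every gene whose symbol begins with SRSF, SFRS, HNRN, SF3, RBM, RBFOX, ELAVL, CELF, NOVA, PTBP, MBNL, SNRP or U2AF, or with MSI and a digit. The study sequenced poly-A mRNA from 4 stages of neural differentiation of the wild-type embryonic stem cell line IVF3.2. The undifferentiated ESCs came from culture on feeder cells of mouse embryonic fibroblasts. R-NSCP1 were neural rosettes at passage 1, picked by hand and grown with SHH at 200 ng/ml, FGF8 at 100 ng/ml, BDNF and ascorbic acid. R-NSCP6 were all cells of the dish at passage 6, when rosettes had gone, after passages in SHH, Dll4 and Jagged-1 at 500 ng/ml each with BDNF and ascorbic acid. NPCs had been kept for over 100 days with FGF2, EGF, BDNF and ascorbic acid. All 4 stages thus derive from a single line, each was 1 library from a pool of many repeats, and stage, medium and collection cannot be told apart. No test between stages was possible, and no error can be attached to any level. A 2-fold rule was used instead.

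Splicing removes introns from pre-mRNA on a spliceosome built of small nuclear ribonucleoproteins (snRNPs), whose proteins include the Sm core and the SF3 complexes. SR proteins mostly favour the use of an exon, while hnRNPs often repress it, and the balance between them sets many alternative exons. Neurons add their own regulators: the ELAVL (Hu), CELF, NOVA, RBFOX and PTBP2 proteins control exons and mRNA stability in the nervous system, and Musashi (MSI) proteins mark neural stem cells.

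The levels are normalised for transcript length and library size (FPKM), as the authors deposited them, and the depth behind a value is unknown. No member has the prefix SRSF, RBFOX, NOVA or MBNL. However, RBM9 is the older symbol of RBFOX2 in RefSeq, and the SFRS symbols are older names of SR proteins and their partners. By family there were 10 SFRS genes, 14 HNRN, 8 SF3, 4 SNRP, 1 U2AF, 3 ELAVL, 2 CELF, 2 PTBP and 1 MSI gene, RBM9, and 28 other RBM genes. The label of neuronal RNA-binding proteins thus fits few members, and the prefix RBM also takes in proteins outside splicing, such as RBM19 and RBM28 of ribosome production. A further 36 genes of these families are listed under LOC symbols with a RefSeq name, outside the 74, and are described beside them.

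Most members were present in all 4 stages. All 74 reached 3 FPKM in at least 1 stage, as a gene had to do to be listed, and 65 did so in all 4 stages (65.5% of all genes did). The number at 3 FPKM or more was 70 members in ESC, 71 members in R-NSCP1, 69 members in R-NSCP6 and 67 members in NPC. Their median level was 40.3 FPKM in ESC, 37.6 FPKM in R-NSCP1, 40.3 FPKM in R-NSCP6 and 23.1 FPKM in NPC. Over the 4 stages, 30 members stayed within a 2-fold range (24.6% of all genes). The median ratio of highest to lowest stage was 2.24 for members and 2.89 for all genes. All genes had lower median levels, such as 9.97 FPKM in ESC and 10.1 FPKM in NPC, and no share at a matched level was computed. The ranges are those of the deposited scale. The only values of 0 were those of RBMX2 in the 3 neural stages.

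Most members were lowest in NPC on the deposited scale: 49 of 74, against 31.8% of all genes. In ESC, 39 had their highest level (32.5% of all genes), 12 members in R-NSCP1 (16.8%), 20 members in R-NSCP6 (29.9%) and 3 members, RBM5, RBM20 and RBMS2, in NPC (20.8%). The lowest level was in ESC for 14 members (33.9% of all genes), in R-NSCP6 for 9 (23.1%) and in R-NSCP1 for 2 (11.1%), of which RBMX2 was tied at 0. The map of all members by stage shows this pale or blue NPC column, broken by a few genes.

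**Figure D1:**
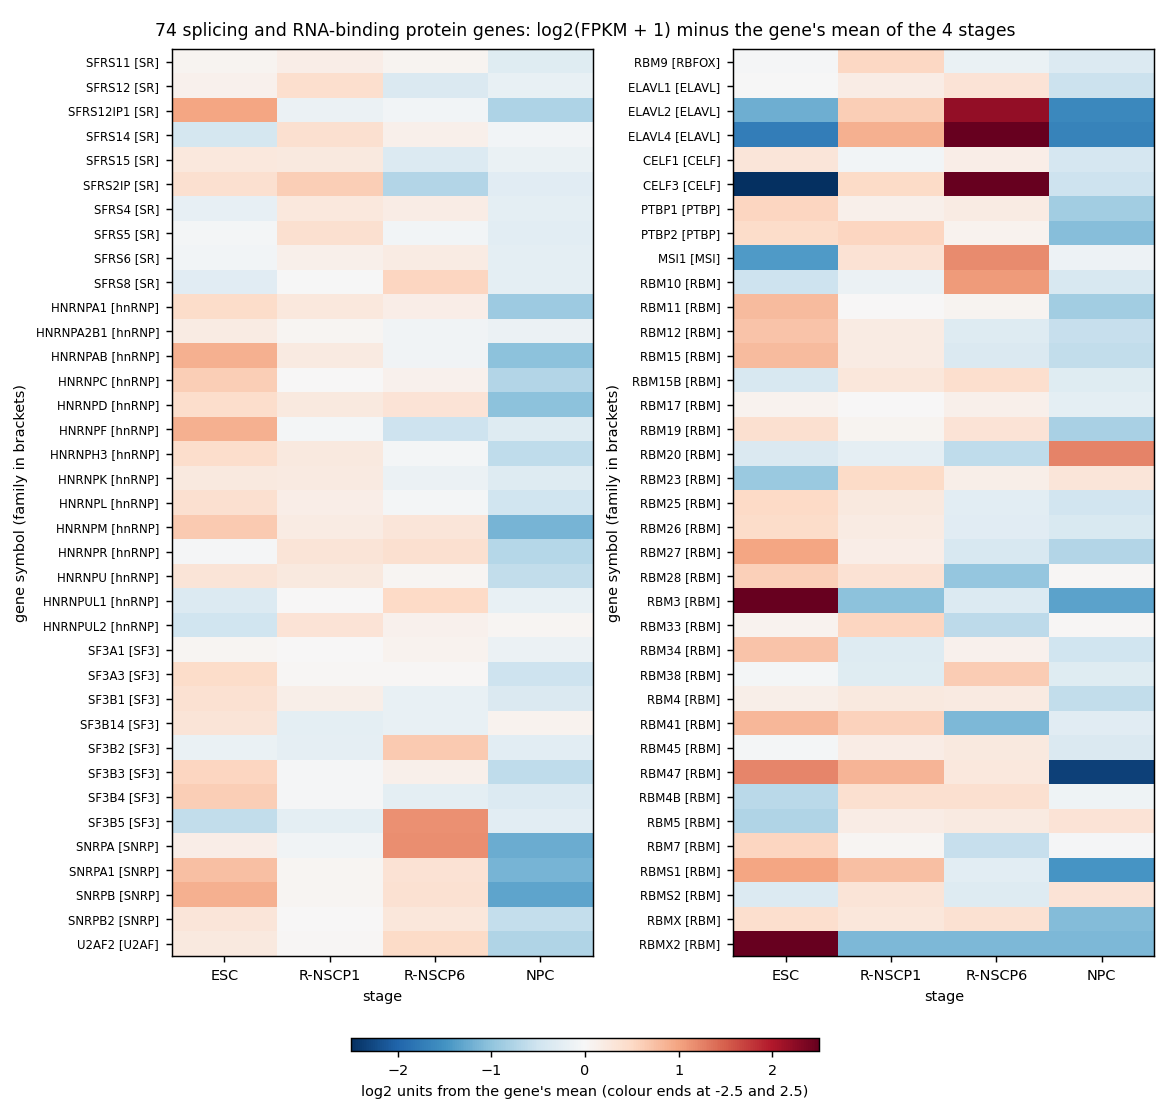
Colours give log2(FPKM + 1) of each of the 74 genes minus its own mean over the 4 stages, with stages as columns and genes as rows in family order. Of the 74 rows, 49 have their lowest value in NPC, beside 31.8% of all genes, and ELAVL2, ELAVL4 and CELF3 stand out in R-NSCP6. With library-sum scaling 20 of the 74 were lowest in NPC, beside 13.1% of all genes. With upper-quartile scaling it was 39 and with median-of-ratios scaling 42, each beside 26.5% of all genes.

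Between stages, a gene was counted when its FPKM differed at least 2-fold with at least 3 FPKM in the higher stage. In NPC against ESC, 28 members were lower (23.8% of all genes were) and 5 higher (22.1%). In NPC against R-NSCP6, 22 were lower (20% of all genes) and 2 higher (15.1%). The earlier steps moved few members: in R-NSCP1 against ESC, 6 were higher (18.1%) and 5 lower (13.7%), and in R-NSCP6 against R-NSCP1, 7 were higher (15% of all genes) and 5 lower (13.2%). These comparisons share libraries.

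**Figure D2:**
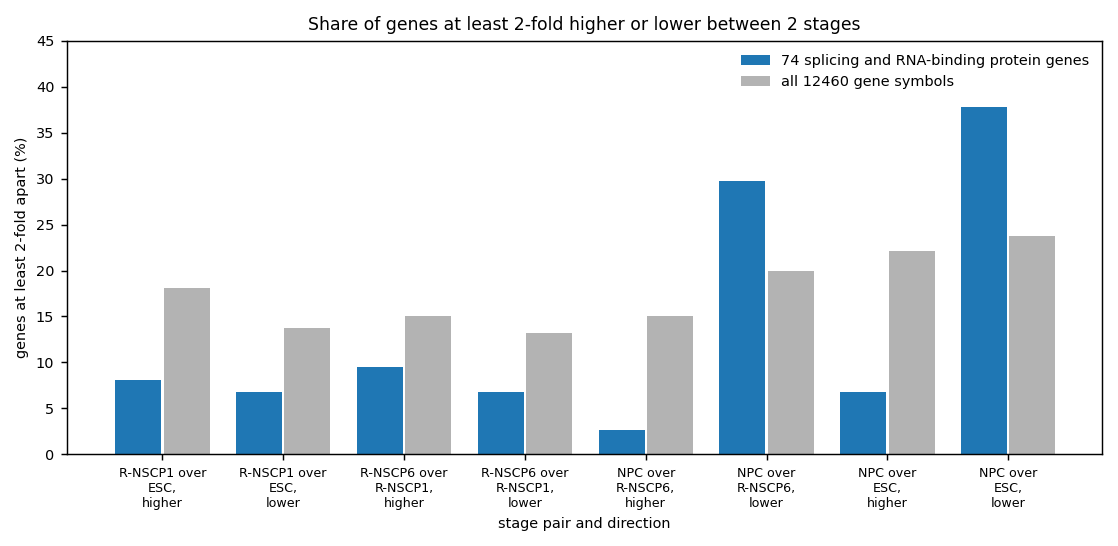
Bars give the percentage of genes at least 2-fold higher or lower for each of 4 stage pairs, for the 74 members in blue and all 12460 gene symbols in grey. On the deposited scale members exceed all genes only in the lower direction of NPC over R-NSCP6 and of NPC over ESC. There 22 and 28 members were counted, against 6 and 6 with library-sum scaling. That is 8.11% of members for each pair beside 9.18% and 8.64% of all genes, so no excess remains with that scaling. With upper-quartile scaling 23.0% and 32.4% of members were lower, beside 15.5% and 19.2% of all genes. With median-of-ratios scaling it was 23.0% and 33.8% of members, beside 16.2% and 21.8%.

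The median log2 ratio of FPKM + 1, NPC over ESC, was -0.70 for members and -0.07 for all genes, and 57 of the 74 lay under the median of all genes. For NPC over R-NSCP6 the medians were -0.59 for members and -0.17 for all genes, with 56 members under the median of all genes. For R-NSCP1 over ESC they were -0.17 for members and 0.05 for all genes, with 45 members under it, and for R-NSCP6 over R-NSCP1 they were 0.00 for members and -0.00 for all genes. The counts depend on scale: the FPKM sum of a library ranges between 491243 and 999473. When each FPKM was scaled to the sum of its library, the median log2 ratio of all genes, NPC over ESC, moved to 0.76, and 6 members were lower and 14 higher. Of the members counted, 70% were then higher (83.5% of all genes counted), while 15.2% were higher as deposited (48.1% of all genes counted). For NPC over R-NSCP6 the share higher was 53.8% of members counted and 75.7% of all genes counted, while as deposited it was 8.33% of members and 43.0% of all genes. For R-NSCP6 over R-NSCP1 it was 11.5% of members and 13.5% of all genes, while as deposited it was 58.3% of members and 53.2% of all genes. For R-NSCP1 over ESC it was 94.1% of members and 92.4% of all genes (75% and 66.5% with upper-quartile scaling), while as deposited it was 54.5% of members and 57.0% of all genes. The members' excess among genes lower in NPC was thus not seen with this scaling, where 8.11% of members and 8.64% of all genes were at least 2-fold below ESC, but fewer members than genes at large were higher, 18.9% against 43.7%. The gap between the medians of members and all genes was then -0.52, against -0.63 as deposited. Since a scaling multiplies the ratios of all genes alike, this gap could change only through the 1 added to FPKM. This scaling multiplies every ratio of NPC to ESC by 1.96, of NPC to R-NSCP6 by 1.54, of R-NSCP1 to ESC by 2.03 and of R-NSCP6 to R-NSCP1 by 0.627, so that a gene given below as lower in NPC by less than its factor would turn to higher. Single rows weigh on the sums, with up to 206209 FPKM in ESC and 120988 FPKM in R-NSCP6. Differences below are those of the deposited FPKM.

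The hnRNPs, abundant proteins that coat nascent transcripts, are described first. Of 14 genes, 11 were highest in ESC (32.5% of all genes) and 11 were lowest in NPC (31.8%). At least 2-fold less in NPC than in ESC was seen for 7 (23.8% of all genes), with 0 higher (22.1%). With library-sum scaling the lowest log2 ratio of the family, that of HNRNPAB, was -0.93, so no hnRNP gene was then 2-fold lower. HNRNPA1, a repressor of exon inclusion and the most abundant member, had 1981 FPKM in ESC, 1735 FPKM in R-NSCP1, 1628 FPKM in R-NSCP6 and 770.1 FPKM in NPC. Its level was thus nearly flat up to R-NSCP6 and 2.11-fold lower in NPC than there. HNRNPAB, which binds AU-rich and telomeric sequences, had the lowest ratio of the family, with 90.5 FPKM in NPC against 344 in ESC (3.80-fold lower).

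HNRNPM was at 353 FPKM in ESC, 261 FPKM in R-NSCP1, 279 FPKM in R-NSCP6 and 99.6 FPKM in NPC. HNRNPD (AUF1), which controls the decay of AU-rich mRNAs, was at 369, 324, 347 and 133 FPKM in the same order. For both, the library at least 2-fold below ESC was that of NPC. HNRNPC, the binder of uridine tracts, was at 785 FPKM in ESC and already lower in R-NSCP1 with 515, then at 545 in R-NSCP6 and 305 in NPC. HNRNPA1, HNRNPC and several other hnRNP genes have processed copies in primate genomes, so that their reads may be shared with near-identical sequences and single values are uncertain.

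The other hnRNP genes were not alike. HNRNPA2B1 and HNRNPK, with 525 and 499 FPKM in ESC, stayed within a 2-fold range, as did HNRNPL, HNRNPU, HNRNPUL1 and HNRNPUL2. HNRNPUL2, a U-like protein, had the highest ratio of the family, with 63.3 FPKM in ESC, 114 FPKM in R-NSCP1, 95.9 FPKM in R-NSCP6 and 92.9 FPKM in NPC. HNRNPF, which binds G tracts, was at 165 FPKM in ESC and at 85.1, 60.8 and 70.2 FPKM in the later stages. It is the only hnRNP gene whose lowest stage was R-NSCP6. Summed over the family, the level was 5819 FPKM in ESC, 4919 FPKM in R-NSCP1, 4566 FPKM in R-NSCP6 and 2700.0 FPKM in NPC.

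The genes with SFRS symbols, of SR proteins and their partners, varied little, unlike the SR genes under LOC symbols described further on. Of 10 genes, 8 stayed within a 2-fold range over all 4 stages (24.6% of all genes) and 6 were highest in R-NSCP1 (16.8%). The family median on the log2 scale was -0.25 for NPC over ESC. SFRS5 (SRSF5), the most abundant, was at 160 FPKM in ESC, 219 FPKM in R-NSCP1, 158 FPKM in R-NSCP6 and 139 FPKM in NPC. SFRS6 (SRSF6) was at 125, 144, 151 and 111 FPKM in that order, and SFRS4 (SRSF4) at 47.3, 65.3, 62.0 and 46.1. None of these SR genes differed by 2-fold between any stages.

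SFRS14 (SUGP2), a G-patch protein, had the highest NPC to ESC ratio of the group, with 18.9 FPKM in ESC, 34.9 FPKM in R-NSCP1, 28.5 FPKM in R-NSCP6 and 24.8 FPKM in NPC. SFRS12IP1, named SREK1IP1 in RefSeq, was the exception. It was at 49.0 FPKM in ESC, 21.7 FPKM in R-NSCP1, 22.9 FPKM in R-NSCP6 and 13.8 FPKM in NPC. It was prevalent in ESC, meaning that its highest FPKM was at least 3 and at least 2 times the second highest, by a fold of 2.14. SFRS2IP (SCAF11) had 8.43 FPKM in R-NSCP6 against 22.8 in R-NSCP1, 2.70-fold lower.

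By this rule of prevalence, 3 members were prevalent in ESC (9.21% of all genes), 0 members in R-NSCP1 (2.04%), 5 members in R-NSCP6 (7.58%) and 1 member in NPC (6.55%). In any stage it was 9 members of 74 (25.4% of all genes), so 65 had no stage that stood out. The rule is close for SNRPA at 1.99, RBM11 at 1.99, HNRNPF at 1.94, RBM27 at 1.84 and MSI1 at 1.80, which are just outside, and for SFRS12IP1 just inside.

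The SF3 genes encode the U2 snRNP subunits that clamp the branch site. SF3B1, the branch-site binding subunit, was at 139 FPKM in ESC, 119 FPKM in R-NSCP1, 93.6 FPKM in R-NSCP6 and 83.0 FPKM in NPC. SF3B3 had the lowest NPC to ESC ratio of the 8 genes, with 103 FPKM in ESC, 68.9 FPKM in R-NSCP1, 76.5 FPKM in R-NSCP6 and 44.8 FPKM in NPC. SF3A3 was at 26.9 FPKM in NPC against 54.1 in ESC. Of the 8 genes, these 2 met the 2-fold rule for NPC below ESC, beside 23.8% of all genes. SF3A1, SF3B1, SF3B2, SF3B4 and SF3B14 (SF3B6) kept within a 2-fold range.

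SF3B5, a small subunit of SF3b, differed from these. It had 48.6 FPKM in ESC, 63.8 FPKM in R-NSCP1, 167 FPKM in R-NSCP6 and 62.3 FPKM in NPC, and was prevalent in R-NSCP6 by a fold of 2.62. SF3B2 was likewise highest in R-NSCP6, with 110.3 FPKM and between 58.4 and 62.0 in the other stages. SF3B1, of the same complex, was lower in R-NSCP6 than in ESC and R-NSCP1. The subunits of this complex thus did not keep a constant ratio between libraries.

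Among snRNP proteins, the 4 SNRP members had the lowest median ratio of the larger families, -1.66 for NPC over ESC. SNRPB, the B protein of the Sm core, was at 428 FPKM in ESC, 238 FPKM in R-NSCP1, 303 FPKM in R-NSCP6 and 92.4 FPKM in NPC. Its level in NPC was 4.63-fold lower than in ESC and 3.27-fold lower than in R-NSCP6. SNRPA1 of the U2 snRNP was at 36.9, 22.2, 27.8 and 9.03 FPKM from ESC to NPC. SNRPA, which binds the snRNA of the U1 snRNP, was highest in R-NSCP6 with 122 FPKM, against 61.1 in ESC, 51.0 in R-NSCP1 and 22.4 in NPC. SNRPB2 of the U2 snRNP varied least, at 40.5, 33.0, 40.3 and 21.4 FPKM. All 4 were lowest in NPC (31.8% of all genes).

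U2AF2, the large subunit of the factor that recognises the polypyrimidine tract, was at 79.0 FPKM in ESC, 68.0 FPKM in R-NSCP1, 92.9 FPKM in R-NSCP6 and 39.4 FPKM in NPC, 2.36-fold lower in NPC than in R-NSCP6. The U2AF1 gene of the small subunit, listed as LOC722383, was at 286, 232, 258 and 186 FPKM and kept within a 2-fold range.

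**Figure D3:**
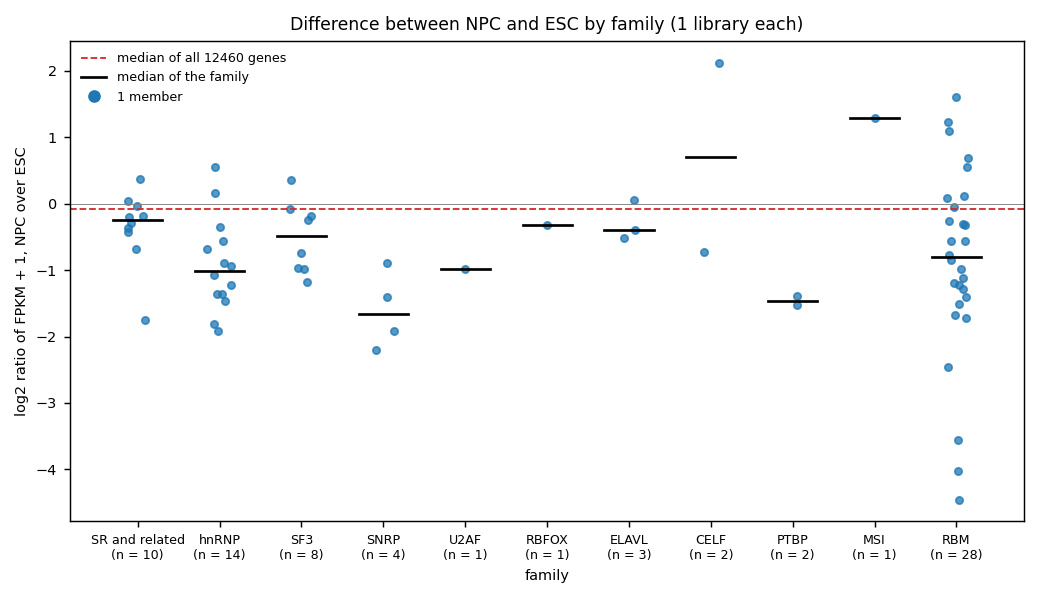
Points give the log2 ratio of FPKM + 1, NPC over ESC, of each member by family, black bars the family median, and the dashed line the median of all 12460 genes at -0.07. The hnRNP, SNRP, U2AF and PTBP medians lie near or below -1, the SR median at -0.25, and RBM genes spread over the widest range.

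ELAVL2 (HuB) and ELAVL4 (HuD), neuronal proteins that stabilise AU-rich mRNAs, were low in ESC and NPC and highest in R-NSCP6. ELAVL2 was at 1.68 FPKM in ESC, 8.57 FPKM in R-NSCP1, 27.6 FPKM in R-NSCP6 and 1.03 FPKM in NPC. ELAVL4 was at 0.698, 9.39, 31.0 and 0.765 FPKM in the same order. Both were prevalent in R-NSCP6, by a fold of 3.22 for ELAVL2 and 3.30 for ELAVL4, and in NPC they were 26.9-fold and 40.5-fold lower than in R-NSCP6. ELAVL3 (HuC), listed as LOC716563, was at 0.147, 9.25, 33.1 and 3.83 FPKM, so that its level in NPC stayed above that in ESC.

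ELAVL1 (HuR), the family member that nearly all cells use, was at 31.8 FPKM in ESC, 36.8 FPKM in R-NSCP1, 41.2 FPKM in R-NSCP6 and 21.9 FPKM in NPC. Within a library, FPKM is per length, and ELAVL1 was 45.6 times ELAVL4 in ESC, 3.92 times in R-NSCP1, 1.33 times in R-NSCP6 and 28.7 times in NPC. The neuronal genes thus came closest to ELAVL1 in R-NSCP6.

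CELF3, a brain regulator of alternative exons, was also highest in R-NSCP6 and next in R-NSCP1. It was at 0.0482 FPKM in ESC, 8.14 FPKM in R-NSCP1, 40.6 FPKM in R-NSCP6 and 3.58 FPKM in NPC, prevalent in R-NSCP6 by a fold of 4.98. CELF1, which is widely expressed, was at 29.6, 22.7, 26.9 and 17.6 FPKM in that order. CELF3 exceeded CELF1 per length in R-NSCP6, where the ratio of CELF1 to CELF3 was 0.662, and lay below it in R-NSCP1 at 2.79 and in NPC at 4.91.

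Under LOC symbols, CELF5 (LOC721694) was at 1.17 FPKM in ESC, 4.26 FPKM in R-NSCP1, 10.7 FPKM in R-NSCP6 and 0.502 FPKM in NPC. CELF4 (LOC715864) was at 0.0294, 0.503, 3.62 and 0.0211 FPKM. Both were prevalent in R-NSCP6, as was ELAVL3. CELF2 (LOC714291) was at 1.12 FPKM in ESC and between 11.3 and 14.3 in the 3 neural stages, and so kept its level in NPC.

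**Figure D4:**
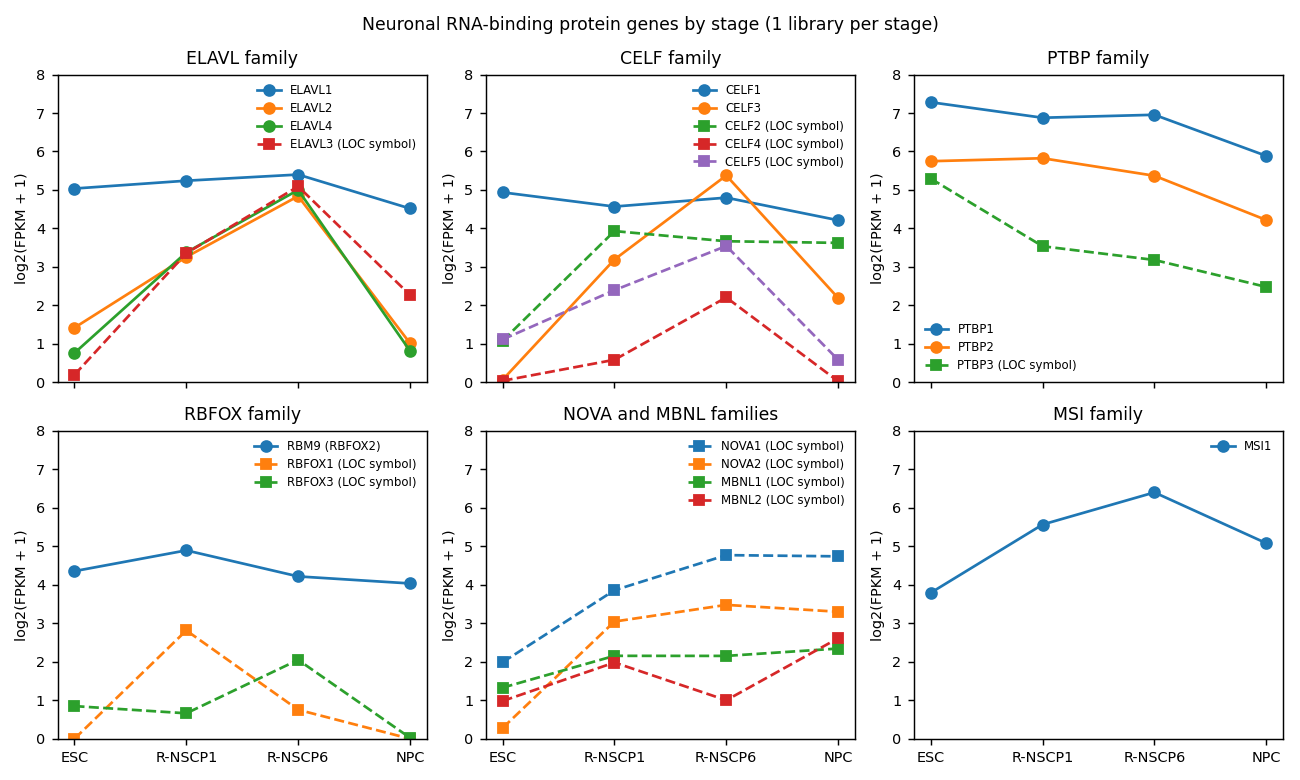
Panels give log2(FPKM + 1) of each gene at the 4 stages, with solid lines for members and dashed lines for genes of the same families under LOC symbols. ELAVL2, ELAVL3, ELAVL4 and CELF3 peak in R-NSCP6 with 27.6 to 40.6 FPKM, and the PTBP genes are lowest in NPC.

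Some neuron markers were also highest in R-NSCP6. Of 10 neuron markers, 9 have a row and 5 of these were highest in R-NSCP6 (29.9% of all genes). DCX, SYT1, GAP43 and MAP2 had other orders. DCX, the doublecortin of young neurons, was at 0.489, 27.7, 4.50 and 10.1 FPKM from ESC to NPC. SYT1 was highest in ESC with 18.9 FPKM, against 15.8 in R-NSCP6. The summed level of the 9 was 57.6 FPKM in ESC, 228 FPKM in R-NSCP1, 589 FPKM in R-NSCP6 and 617 FPKM in NPC. The cortical neuron factors NEUROD6, with 0.124 FPKM in NPC against 32.0 in R-NSCP6, and TBR1, with 0.0710 FPKM in NPC against 41.9 in R-NSCP6, were prevalent in R-NSCP6 as well. SNAP25 had 1.66 FPKM in NPC against 9.39 in R-NSCP6, and STMN2 had 179 in NPC against 201 in R-NSCP6. GAP43 and MAP2 were highest in NPC, with 317 and 83.6 FPKM against 203 and 34.9 in R-NSCP6. MAP2 was prevalent in NPC by a fold of 2.40. NEUROD6 alone was listed at 0, in ESC. The part of neurons in the levels of the ELAVL and CELF genes was not tested. In bulk samples, fewer cells of a type and less RNA per cell cannot be told apart.

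The astroglial markers GFAP, S100B, AQP4, SLC1A3 and FABP7 were all prevalent in NPC and summed to 6.06 FPKM in ESC, 410 FPKM in R-NSCP1, 521 FPKM in R-NSCP6 and 2788 FPKM in NPC. The 5 pluripotency markers summed to 1593 FPKM in ESC and to at most 2.74 elsewhere. The neural progenitor marker PAX6 was at 0.265 FPKM in ESC, 67.8 FPKM in R-NSCP1, 62.3 FPKM in R-NSCP6 and 18.9 FPKM in NPC, and SOX1 (LOC708561) at 0, 5.05, 2.85 and 0.307 FPKM in that order. NES was at 735 FPKM in R-NSCP6 and VIM at 2515 FPKM in NPC, their highest levels. These markers do not by themselves define R-NSCP1 or R-NSCP6. In NPC the high astroglial markers stood beside the low hnRNP and snRNP levels, and their part in those levels was not tested.

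NOVA1 and NOVA2, neuron-specific splicing factors that bind YCAY motifs, are listed under LOC symbols and differed from the ELAVL genes in that NPC kept them. NOVA1 (LOC716705) was at 2.97 FPKM in ESC, 13.5 FPKM in R-NSCP1, 26.3 FPKM in R-NSCP6 and 25.7 FPKM in NPC. NOVA2 (LOC716859) was at 0.215, 7.26, 10.2 and 8.85 FPKM. Both passed the 2-fold rule upwards in R-NSCP1 over ESC and did not pass it in the later steps.

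The RBFOX proteins bind UGCAUG next to alternative exons of brain and muscle. RBM9 (RBFOX2), the broadly expressed member, was at 19.5 FPKM in ESC, 28.8 FPKM in R-NSCP1, 17.6 FPKM in R-NSCP6 and 15.4 FPKM in NPC, within a 2-fold range. RBFOX1 (LOC713147) was listed at 0 in ESC, 6.04 FPKM in R-NSCP1, 0.686 FPKM in R-NSCP6 and 0 in NPC, prevalent in R-NSCP1 by a fold of 8.79. RBFOX3 (LOC711256), which encodes the neuronal antigen NeuN, was at 0.801, 0.582, 3.14 and 0.0186 FPKM from ESC to NPC. RBFOX1 and RBFOX2 were thus highest in R-NSCP1 and RBFOX3 in R-NSCP6.

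PTBP1 represses neuronal exons in cells other than neurons, and in mouse its loss and the gain of its paralog PTBP2 accompany neuron formation. Here both were lowest in NPC. PTBP1 was at 154 FPKM in ESC, 117 FPKM in R-NSCP1, 123 FPKM in R-NSCP6 and 58.2 FPKM in NPC, and PTBP2 at 52.7, 55.7, 40.3 and 17.6 FPKM. In NPC, PTBP1 was 2.66-fold and PTBP2 2.99-fold lower than in ESC. The ratio of PTBP1 to PTBP2 per length was 2.93 in ESC, then 2.09 in R-NSCP1, 3.05 at R-NSCP6 and 3.30 at NPC, so PTBP1 was the more abundant at every stage. PTBP3 (LOC711210), known best from blood cells, was at 38.3 FPKM in ESC, 10.6 FPKM in R-NSCP1, 8.07 FPKM in R-NSCP6 and 4.58 FPKM in NPC, and was prevalent in ESC.

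miR-124 is a neuronal miRNA that is known to target PTBP1 in mouse, and the matched small RNA libraries give its level. The mature sequence is shown as deposited with the counts. Capitals mark bases 2 to 8 of this entry, the positions where a miRNA seed usually lies. The 5' end of the entry was not checked, so the seed that pairs with targets may begin at another base.
miR-124a: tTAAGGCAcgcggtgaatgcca
In RPM, the reads scaled to a constant sum of miRNA reads per library, miR-124a was at 83.8 in ESC (95% exact Poisson interval 78.3 to 89.7), 916 in R-NSCP1 (903 to 929), 573 in R-NSCP6 (562 to 585) and 27.0 in NPC (22.3 to 32.4). They rest on 855 reads in ESC, 19548 in R-NSCP1, 9210.5 (a mean over entries) for R-NSCP6 and 116 for NPC, and the intervals cover counting error only. miR-124a was thus highest in R-NSCP1, where PTBP1 was 1.33-fold lower than in ESC, and lowest in NPC, where PTBP1 was lowest as well. A relation between the 2 could not be tested over 4 libraries.

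MSI1, the Musashi protein of neural stem cells, was at 12.9 FPKM in ESC, 46.4 FPKM in R-NSCP1, 83.6 FPKM in R-NSCP6 and 32.9 FPKM in NPC. It was 3.61-fold higher in R-NSCP1 and 2.56-fold higher in NPC than in ESC. The MBNL genes, whose proteins oppose CELF proteins on many exons in muscle, are listed under LOC symbols. MBNL1 (LOC708735) was at 1.51, 3.45, 3.45 and 4.08 FPKM from ESC to NPC, and MBNL2 (LOC697097) at 0.974, 2.95, 1.00 and 5.11 FPKM. Both were highest in NPC, at low levels.

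The 28 remaining RBM genes share an RNA recognition motif and a name more than a function. By the 2-fold rule, 12 of them were lower in NPC than in ESC (23.8% of all genes) and 3 higher (22.1%). RBMX (hnRNP G), the most abundant, was at 316 FPKM in ESC, 287 FPKM in R-NSCP1, 306 FPKM in R-NSCP6 and 110 FPKM in NPC, 2.88-fold lower in NPC than in ESC. RBM10, a repressor of exon inclusion, was at 17.4, 22.8, 54.4 and 18.9 FPKM from ESC to NPC and was prevalent in R-NSCP6 by a fold of 2.39. RBM38, a target of p53, was also highest in R-NSCP6, with 14.3 FPKM against 7.04 in R-NSCP1.

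RBM20, the splicing factor of titin in heart muscle, was the only member prevalent in NPC. It was at 0.340 FPKM in ESC, 0.491 FPKM in R-NSCP1, 0.108 FPKM in R-NSCP6 and 3.07 FPKM in NPC, which just reaches the minimum of 3. RBM24 (LOC703328), another muscle factor, was at 0.205, 1.76, 1.40 and 3.07 FPKM in that order. The muscle marker DES had 0.474 FPKM in NPC, against 23.0 in ESC, and the other muscle markers ACTA2 and MYH3 were not assessed.

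RBM47, a cofactor of cytidine-to-uridine RNA editing, showed the lowest level in NPC relative to ESC among members not listed at 0. It was at 17.0 FPKM in ESC, 12.8 FPKM in R-NSCP1, 8.29 FPKM in R-NSCP6 and 0.526 FPKM in NPC, 32.3-fold lower in NPC than in ESC. The 4 epithelial markers summed to 431 FPKM in ESC, 94.9 FPKM in R-NSCP1, 31.4 FPKM in R-NSCP6 and 0.588 FPKM in NPC, with CDH1 listed at 0 in R-NSCP6 and NPC. ESRP1 (LOC700009), the epithelial splicing regulator, was at 44.6, 1.20, 0 and 0.0228 FPKM from ESC to NPC, and ESRP2 at 14.7, 0.810, 0.0509 and 0.0521. The levels of the ESRP genes were thus low already in R-NSCP1, where RBM47 was not. The part of epithelial cells in the level of RBM47 was not tested.

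RBMS1, which binds single-stranded nucleic acid, was at 32.4 FPKM in ESC, 27.5 FPKM in R-NSCP1, 13.0 FPKM in R-NSCP6 and 5.10 FPKM in NPC, stepwise lower. Its relative RBMS2 was at 3.68, 6.36, 3.74 and 6.53 FPKM. RBM11, known from human brain and testis, had 0.497 FPKM in NPC against 3.78 in ESC. RBM15, of the complex that methylates adenosine in mRNA, was at 5.28, 3.18, 1.81 and 1.37 FPKM. RBM27 had 5.06 FPKM in NPC against 18.9 in ESC, and the nucleolar RBM19 had 5.52 FPKM in NPC against 13.9 in ESC.

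RBM genes that went the other way were few. RBM5, a tumour suppressor that acts in splicing, was at 26.4 FPKM in ESC, 51.7 FPKM in R-NSCP1, 52.9 FPKM in R-NSCP6 and 57.2 FPKM in NPC, 2.17-fold higher in NPC than in ESC. RBM23 was at 11.6, 32.6, 25.9 and 28.8 FPKM in that order. RBM4B had 16.3 FPKM in R-NSCP1 against 7.27 in ESC, and its close paralog RBM4 had 46.5 FPKM in R-NSCP1 against 43.4 in ESC; reads of these neighbours may be shared, so their split is uncertain. RBM41 and RBM28 dipped in R-NSCP6, with 1.11 FPKM against 5.87 in R-NSCP1 for RBM41 and 5.56 against 15.5 for RBM28.

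The call of RBM3 depends on the row used. RBM3, a cold-inducible protein, has 2 rows with the same values in R-NSCP1 (14.2 FPKM), R-NSCP6 (23.4) and NPC (11.2) but with 199 and 28.2 FPKM in ESC. On the first row it was prevalent in ESC by a fold of 8.50, and on the second the ESC level was 1.21 times that of R-NSCP6 and it was prevalent nowhere. RBMX2, a spliceosome component, was at 21.0 FPKM in ESC and listed at 0 in R-NSCP1, R-NSCP6 and NPC. Such a zero may be a missing estimate rather than absent expression, which was not tested, and no limit of detection is known.

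The 36 relatives under LOC symbols can be read beside the members. On the log2 scale their median was -0.71 for NPC over ESC, with 16 genes (44.4%) at least 2-fold lower in NPC and 7 (19.4%) higher, while 23.8% of all genes were lower and 22.1% higher. PTBP3 had the lowest ratio among those that passed the rule, 8.35-fold lower in NPC than in ESC. Among Sm core genes, SNRPF (LOC716917) was at 623 FPKM in ESC, 214 FPKM in R-NSCP1, 136 FPKM in R-NSCP6 and 100.3 FPKM in NPC, 6.21-fold lower in NPC than in ESC. SNRPD3 (LOC708594) was at 278, 141, 101 and 63.1 FPKM, and SNRPE (LOC701418) at 255, 127, 80.0 and 70.3. Of the 8 SNRP genes under LOC symbols, 7 met the 2-fold rule for NPC below ESC (23.8% of all genes). The exception was SNRPC (LOC718654), with 29.9 FPKM in NPC against 51.4 in ESC. All 8 were lowest in NPC (31.8% of all genes). SNRPN (LOC711028), an imprinted Sm protein gene of brain, was at 352, 91.0, 153 and 79.0 FPKM, prevalent in ESC and not in the neural stages.

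SR protein genes under LOC symbols differed more between NPC and ESC than those under SFRS symbols. SRSF3 (LOC719123) was at 407 FPKM in ESC, 264 FPKM in R-NSCP1, 259 FPKM in R-NSCP6 and 141 FPKM in NPC, and SRSF7 (LOC713388) at 241, 150, 82.1 and 60.3. SRSF1 (LOC713958) was at 130, 114, 86.3 and 47.7 FPKM. Of 5, 4 were lower in NPC than in ESC by the 2-fold rule (23.8% of all genes). The exception was SRSF9 (LOC697191) with 101 FPKM in NPC against 161 in ESC.

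Other genes of the splicing machinery, outside these prefixes, were taken from lists. Of 51 core spliceosome genes, 47 have a row. By the 2-fold rule, NPC over ESC, 14 (29.8%) were lower (23.8% of all genes) and 0 higher (22.1% of all genes). The lowest level was in NPC for 37 (31.8% of all genes). PHF5A (LOC711683), a small SF3b subunit, was at 930 FPKM in ESC, 342 FPKM in R-NSCP1, 234 FPKM in R-NSCP6 and 100.4 FPKM in NPC. Unlike SF3B5, it was not high in R-NSCP6. Of 9 LSM genes with a row, 4 (44.4%) were lower by that rule, such as LSM3 with 82.7 FPKM in NPC against 350 in ESC. Of 11 genes of the SMN complex and Sm assembly, 8 (72.7%) were lower, among them SMN1 with 35.8 FPKM in NPC against 109 in ESC; SMN genes can exist in near-identical copies.

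SR-related proteins and their kinases had a median near that of all genes, with a log2 ratio of -0.07 for NPC over ESC, as for all genes. Of 20 with a row, 3 (15%) were lower by the 2-fold rule (23.8% of all genes) and 2 (10%) higher (22.1%). LUC7L (LOC694332) was at 89.5 FPKM in R-NSCP6 and at most 25.9 elsewhere, and the kinase CLK1 was at 71.2 and at most 33.7 FPKM. Of 39 other splicing regulators, 17 (43.6%) were lower (23.8% of all genes) and 3 (7.69%) higher (22.1%). QKI (LOC712600), a regulator of glial mRNAs, was at 57.2 FPKM in ESC, 77.0 FPKM in R-NSCP1, 82.1 FPKM in R-NSCP6 and 249 FPKM in NPC, prevalent in NPC by a fold of 3.04. RBPMS2 (LOC712536) was at 151, 29.5, 12.6 and 4.73 FPKM from ESC to NPC, and RBPMS at 117, 20.5, 11.8 and 10.1. Of 21 other neuronal or cytoplasmic RNA-binding protein genes, 5 (23.8%) were lower in NPC than in ESC, the share of all genes, and 2 (9.52%) higher.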

How the data were processed

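Poly-A mRNA and small RNA of 4 stages were sequenced, with 1 library per stage and assay. The authors aligned the mRNA libraries with TopHat (TopHat2 2.0.5 in the submitters' processing notes) against assembly MMUL_1.0 and deposited FPKM values of UCSC known genes from Cufflinks 2.0.2; FPKM was used as deposited. For small RNA, the authors aligned reads to rhesus miRNAs of miRBase and deposited expected counts, averaged over entries of the same mature miRNA; these were scaled to their sum and were rounded only for the edgeR 4.0.16 and DESeq2 1.42.0 factors in R 4.3.3.

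Each symbol was counted once, by its row of highest mean FPKM (128 symbols have several rows). Of 5050 LOC symbols, 3387 were named from RefSeq genes of a later assembly, and no coordinates were used. Fold rules were applied to FPKM, and medians to log2(FPKM + 1). Genes absent from the table were not assessed.

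Members and lists were chosen with earlier results of these data known. Named members were all prevalent ones, all of the small neuronal families, and the most abundant and the extreme NPC to ESC ratios of each other family. Further members, the LOC relatives, ESRP2, SMN1 and RBPMS were named after their values were seen. The code of the rules was checked on simulated data with little noise and planted folds. That check gives no error rate for stages with 1 library each. Alternatives were other scalings, minimum levels, folds, pseudocounts and rows. Splicing itself was not analysed here. Python 3.11.15, numpy 2.4.6, scipy 1.17.1, pandas 2.3.3 and matplotlib 3.10.9 were used.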

Additional observations from a re-analysis of the deposited data

How the results depend on the processing

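No paired analysis was possible because each stage had 1 library per assay, and for the same reason no replicate could be left out. The gap between the medians of members and all genes, NPC over ESC, ranged between -0.65 and -0.50 over all alternatives. Under the scalings it could change only through the 1 added to FPKM, so its range there is no test of scale. For R-NSCP6 over R-NSCP1 this gap, 0.00 as deposited, changed sign with upper-quartile scaling (-0.00023), library-sum scaling (-0.033) and a minimum of 10 FPKM (-0.0049).

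The percentage of all genes called under the same setting follows each count of members in parentheses, except without the ESC library, where it was not computed. Library-sum scaling gave 2 members prevalent in R-NSCP1 (5.65%) and 3 in R-NSCP6 (2.96%). It gave 32 higher (50.3%) and 2 lower (4.13%) in R-NSCP1 over ESC, 3 higher (5.29%) and 23 lower (33.8%) in R-NSCP6 over R-NSCP1, 7 higher (28.6%) and 6 lower (9.18%) in NPC over R-NSCP6, and 14 higher (43.7%) and 6 lower (8.64%) in NPC over ESC. With it, 20 members were lowest in NPC (13.1%) and 5 highest in ESC (9.96%). Upper-quartile scaling gave 9 higher (21.4%) and 3 lower (10.8%) in R-NSCP1 over ESC, and median-of-ratios scaling 5 prevalent in ESC (9.68%).

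A fold of at least 1.5 gave 10 members prevalent in ESC (15.9%) and 9 in R-NSCP6 (14.1%). It gave 11 higher (26.8%) and 13 lower (23.9%) in R-NSCP1 over ESC, 13 lower (23.3%) in R-NSCP6 over R-NSCP1, and 4 higher (22.8%) and 37 lower (32.6%) in NPC over R-NSCP6. A fold of at least 4 gave 1 prevalent in R-NSCP6 (1.81%). It gave 3 higher (8.11%) and 2 lower (4.79%) in R-NSCP1 over ESC, 1 higher (3.65%) and 1 lower (3.51%) in R-NSCP6 over R-NSCP1, 1 higher (5.85%) and 5 lower (6.93%) in NPC over R-NSCP6, and 2 higher (11.7%) and 7 lower (9.55%) in NPC over ESC. A minimum of 10 FPKM gave 0 prevalent in NPC (4.33%), 3 higher (9.09%) in R-NSCP1 over ESC, 1 higher (8.88%) in NPC over R-NSCP6 and 3 higher (13.4%) in NPC over ESC. Without the ESC library, an alternative chosen after seeing the data, R-NSCP1 had 2 prevalent members, R-NSCP6 had 7 and NPC had 1. In that setting 60 members were lowest in NPC. No share of all genes stands beside these counts, so whether members exceeded all genes there was not tested. Of 416 ratios of named genes under other scalings and a pseudocount of 0.1, 99 moved by at least 1.5-fold. A change of sign was counted for called ratios only, and 0 were found. Called ratios are at least 2-fold and the scalings move a ratio by about that at most, so few could change sign. Some ratios not called did, such as CELF1 in NPC over ESC, at -0.72 as deposited and 0.23 with library-sum scaling. FPKM without counts leaves the precision of low values unknown.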
